A study of Homo sapiens with 18 samples.

Results

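The genes described here are the NF-kB transcription factor subunits and a set of NF-kB inhibitor and feedback genes, followed through knockdown of FOXO3 in Burkitt lymphoma cells. They are the 10 genes NFKB1, NFKB2, REL, RELA, RELB, NFKBIA, NFKBIE, TNFAIP3, BCL3 and BIRC3, taken by symbol. All 10 were present among the 16001 genes tested in BL-41, the 15365 in Namalwa and the 16787 in Jiyoye, and among the 14549 genes common to these lines. BL-41, Namalwa and Jiyoye are established cell lines of Burkitt lymphoma, a B cell cancer with MYC translocation. Cells of each line carried a TagRFP lentiviral vector that expressed either a FOXO3 shRNA or a scrambled one, so the controls were transduced and sorted too, and RNA was taken from cells sorted on day 4. The 6 groups (BL-41, Namalwa and Jiyoye with FOXO3 shRNA, and the same lines with scrambled shRNA) held 3 libraries each, 18 in all. The labels speak of triplicates without naming separate cultures, so p-values measure only how these libraries spread, and that spread may be technical. As general background not given in the labels, Namalwa and Jiyoye carry Epstein-Barr virus (EBV) and BL-41 does not. The comparison by virus is therefore 2 lines against 1, in which EBV and cell line cannot be told apart.

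NF-kB is a family of dimeric factors that inhibitor proteins hold in the cytoplasm. In the canonical route, signals from antigen, Toll-like or TNF receptors lead to loss of the inhibitor IkBα and entry of RELA or REL dimers with the NFKB1 product p50. In the noncanonical route, receptors such as CD40 and the BAFF receptor stabilise the kinase NIK, which leads to processing of the NFKB2 product to p52 and action of its dimer with RELB. Many genes of the inhibitors are themselves NF-kB targets and close feedback loops: NFKBIA codes for IkBα, NFKBIE for IkBε, TNFAIP3 for the ubiquitin-editing enzyme A20, and BIRC3 for the ubiquitin ligase cIAP2. BCL3 is an atypical IkB protein that can coactivate p50 or p52 dimers in the nucleus. In B cells infected with EBV, the viral membrane protein LMP1 can mimic CD40 and keep both routes active.

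The stretches of genome around the start sites of 5 members are shown because BIRC3, TNFAIP3, NFKBIA and NFKB2 were the members at least 2-fold higher in Jiyoye than in BL-41, and RELA was the member that rose with FOXO3 shRNA in both lines. Each runs 5′ to 3′ from 250 bases before to 50 bases after a RefSeq start site (GRCh38.p14), taken as the start nearest to that of the MANE Select transcript in GENCODE. They are chr11:102317234-102317533 on the plus strand for BIRC3, chr6:137867009-137867308 on the plus strand for TNFAIP3, chr14:35404700-35404999 on the minus strand for NFKBIA, chr10:102395455-102395754 on the plus strand for NFKB2 and chr11:65662867-65663166 on the minus strand for RELA. Capitals mark matches, on either strand, to the NF-kB consensus site.
BIRC3: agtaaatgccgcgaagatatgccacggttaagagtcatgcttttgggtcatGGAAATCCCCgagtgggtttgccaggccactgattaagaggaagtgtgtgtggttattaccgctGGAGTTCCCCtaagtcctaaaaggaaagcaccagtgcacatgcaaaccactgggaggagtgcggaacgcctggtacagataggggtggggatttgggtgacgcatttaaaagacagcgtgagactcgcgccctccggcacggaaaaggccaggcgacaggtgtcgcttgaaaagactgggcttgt
TNFAIP3: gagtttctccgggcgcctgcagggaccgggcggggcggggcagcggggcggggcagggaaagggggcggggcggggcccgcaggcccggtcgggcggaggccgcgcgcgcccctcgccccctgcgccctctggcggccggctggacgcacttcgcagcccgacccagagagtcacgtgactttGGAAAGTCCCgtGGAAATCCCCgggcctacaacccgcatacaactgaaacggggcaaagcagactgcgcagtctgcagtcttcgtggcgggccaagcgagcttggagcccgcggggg
NFKBIA: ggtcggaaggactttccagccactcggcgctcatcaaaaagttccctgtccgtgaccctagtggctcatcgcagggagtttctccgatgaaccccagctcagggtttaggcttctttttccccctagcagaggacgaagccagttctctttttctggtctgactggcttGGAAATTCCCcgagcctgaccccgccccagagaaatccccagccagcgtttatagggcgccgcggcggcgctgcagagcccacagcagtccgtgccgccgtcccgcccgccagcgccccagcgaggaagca
NFKB2: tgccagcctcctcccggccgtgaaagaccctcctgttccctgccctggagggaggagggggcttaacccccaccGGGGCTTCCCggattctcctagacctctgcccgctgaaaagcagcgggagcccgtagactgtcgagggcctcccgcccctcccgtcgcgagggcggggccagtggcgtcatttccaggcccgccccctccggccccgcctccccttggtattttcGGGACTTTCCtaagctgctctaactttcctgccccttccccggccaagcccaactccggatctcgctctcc
RELA: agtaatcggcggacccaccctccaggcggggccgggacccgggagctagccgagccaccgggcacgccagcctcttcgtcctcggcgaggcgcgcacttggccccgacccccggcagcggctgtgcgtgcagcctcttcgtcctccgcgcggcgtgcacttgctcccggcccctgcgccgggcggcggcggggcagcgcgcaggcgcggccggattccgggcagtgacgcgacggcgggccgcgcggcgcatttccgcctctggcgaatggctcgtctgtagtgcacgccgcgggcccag
With the start base counted as 0, matches began at -199 and -135 for BIRC3, at -67 and -55 for TNFAIP3, at -81 for NFKBIA, and at -176 and -21 for NFKB2. RELA had 0 matches in either of its windows. A window was found for 8 of the 10 members, all but RELB and NFKBIE, and 7 of these 8 members had at least 1 match. Of all 35116 windows 5.91% held a match, a share counted per window and not per gene. The members include genes listed because they are NF-kB feedback genes, so their count of matches is no independent result about them. The FOXO core motif GTAAACA, searched on both strands, was in 0 of the 12 member windows over all their starts and in 3.42% of all windows. A match in these letters is a description and does not show binding.

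Each deposited table held 1 normalized value for each arm and none for single libraries, so levels below are the authors' arm values without an SD, and the standard error (SE) of a fold change was worked back from its deposited size and p. Every fold change is a log2 ratio of the FOXO3 shRNA arm to the scrambled arm, and a gene was called at an adjusted p under 0.05 from the authors' DESeq2 test. Arm values summed to between 17065755 and 18459745, and all 10 members had a mean of at least 100 in every line. The 7 B cell markers reported (such as MS4A1, CD79A and PAX5) reached that mean too, and summed to 49022 with FOXO3 shRNA and 61049 with scrambled shRNA in BL-41, 44535 and 43741 in Namalwa, and 17181 and 21285 in Jiyoye. The 5 germinal centre markers (MME, BCL6, CD38, MYC and TCL1A) summed to 19289.7 with FOXO3 shRNA and 32267 with scrambled shRNA in BL-41, 46720.4 and 48449.9 in Namalwa, and 24476 and 26438 in Jiyoye. T or NK cell markers, 5 or 6 of them listed per line, summed to 46.8 to 111 with FOXO3 shRNA and to 49.3 to 99.8 with scrambled shRNA. The 5 of 7 myeloid markers listed for BL-41 summed to 156 with FOXO3 shRNA and 60.2 with scrambled shRNA there, all with a mean under 100, while ITGAM alone passed that mean in Namalwa and in Jiyoye. Fibroblast and epithelial markers summed to 2127 with FOXO3 shRNA and 3347 with scrambled shRNA in Jiyoye, where COL1A1, KRT8 and KRT18 had a mean of at least 100. The part of these marker sums in the results was not tested, and in bulk RNA fewer cells of a type and less RNA per cell cannot be told apart. The target itself had values of 544.7 with FOXO3 shRNA and 944.5 with scrambled shRNA in BL-41, 398.4 and 850.5 in Namalwa, and 384.0 and 471.2 in Jiyoye. In the authors' deposited table FOXO3 fell in BL-41 and Namalwa and was not called in Jiyoye (log2 fold change -0.30, 95% interval -0.59 to 0.003), so every direction drawn from the Jiyoye arm labelled FOXO3 shRNA rests on a target whose fall was not shown.

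Among the subunits, RELA was the only one called in any line. RELA codes for p65, the subunit with the main transactivation domain of the canonical route, and its gene lies at chr11:65653601-65663857 (GRCh38.p14). Its arm value was 3210 with FOXO3 shRNA and 2125 with scrambled shRNA in BL-41, 2445 and 2033 in Namalwa, and 2195 and 1665 in Jiyoye. The FOXO3 shRNA arm was thus the higher one in each line. In the authors' deposited table RELA rose by 0.60 (SE 0.12) in BL-41, 1.51-fold, with an adjusted p of 1.02e-05 by DESeq2. A rise of 0.40 (SE 0.11), 1.32-fold, was deposited for Jiyoye, where the authors' deposited table has an adjusted p of 0.00418 by DESeq2. In Namalwa the same table's value of 0.27 (SE 0.10, 95% interval 0.08 to 0.45) was not called (adjusted p = 0.0719, DESeq2). Adjusted among the better expressed genes alone, those whose mean reached 100, its p was 0.0484.

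RELB, the partner of p52 in the noncanonical route, was not called, though its value of -0.95 in BL-41 was the lowest of any member. Its gene lies at chr19:45001464-45038192 (GRCh38.p14). Arm values were 680.1 with FOXO3 shRNA and 1314 with scrambled shRNA in BL-41, 992 and 1247 in Namalwa, and 849 and 917 in Jiyoye. In the authors' deposited table this was a log2 fold change of -0.95 (SE 0.41, 95% interval -1.75 to -0.15) in BL-41, with an adjusted p of 0.0664 by DESeq2. Adjusted among the genes whose mean reached 100, its p was 0.0470, so the call depends on which genes are tested together. The deposited values were -0.33 (95% interval -0.60 to -0.06) in Namalwa and -0.11 (95% interval -0.37 to 0.15) in Jiyoye, with adjusted p of 0.155 and 0.700 in the authors' deposited table (DESeq2).

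The other subunits were not called. REL, the c-Rel subunit that is prominent in lymphocytes, had values of 1122 with FOXO3 shRNA and 895 with scrambled shRNA in BL-41, 691 and 737 in Namalwa, and 1897 and 1577 in Jiyoye. Its deposited log2 fold changes were 0.33, -0.09 and 0.27 in that order of lines, with adjusted p from 0.0925 to 0.865 (authors' deposited table, DESeq2). The 95% interval in BL-41 was 0.03 to 0.62. NFKB1, the gene of p105 and p50, had values of 832 with FOXO3 shRNA and 821 with scrambled shRNA in BL-41, 1135 and 1070.4 in Namalwa, and 1451 and 1362 in Jiyoye. NFKB2, the gene of p100 and p52, had values of 1312 with FOXO3 shRNA and 1356 with scrambled shRNA in BL-41, 1008 and 1102 in Namalwa, and 3557 and 3272 in Jiyoye. The arms of both genes lay close together in each line. In the authors' deposited table the log2 fold changes of NFKB1 ran from 0.02 to 0.09 and those of NFKB2 from -0.13 to 0.12. The widest 95% interval of NFKB1 was -0.24 to 0.28, in BL-41, and that of NFKB2 was -0.42 to 0.33, also in BL-41.

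**Figure D1:**
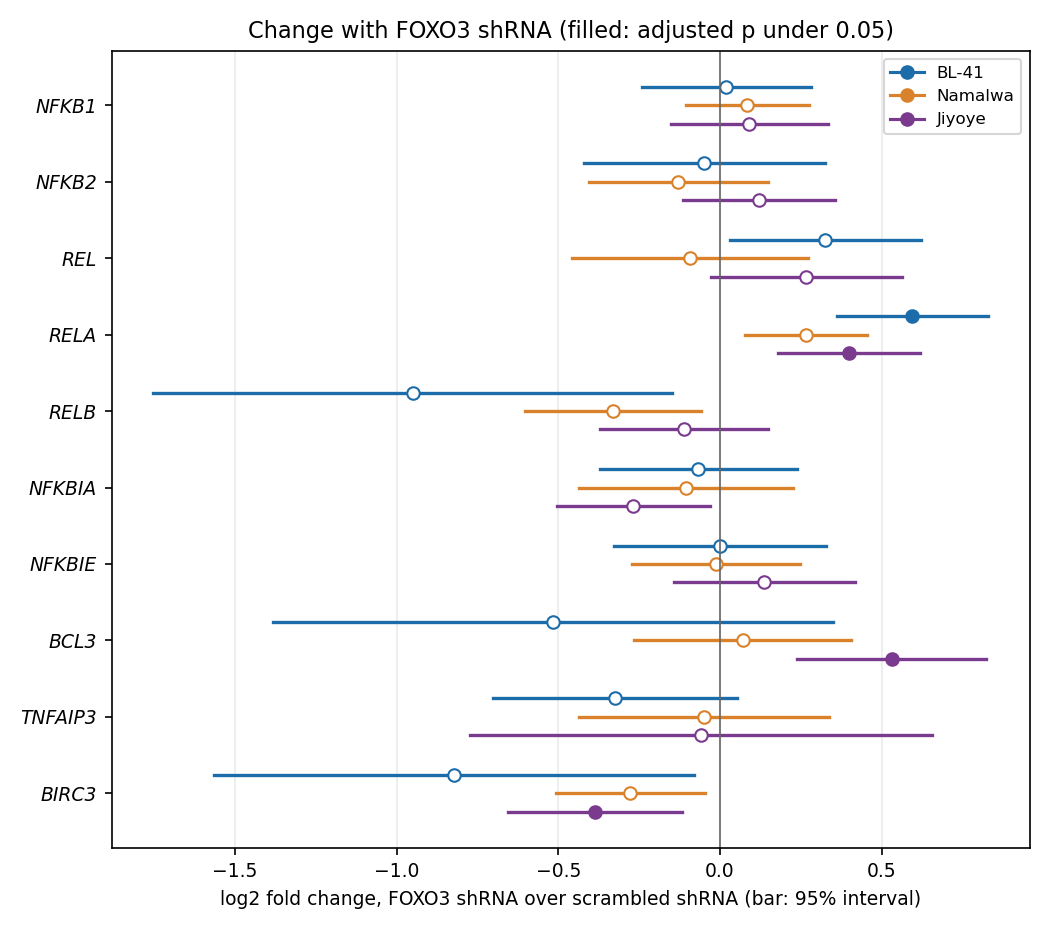
Log2 fold change of each member, FOXO3 shRNA over scrambled shRNA (x axis), in BL-41, Namalwa and Jiyoye, with 95% intervals from the recovered SE; filled points had an adjusted p under 0.05 in the authors' DESeq2 test. RELA is filled in BL-41 (0.60) and Jiyoye (0.40), BCL3 (0.53) and BIRC3 (-0.39) in Jiyoye, and the intervals of RELB, BCL3 and BIRC3 in BL-41 and of TNFAIP3 in Jiyoye are the widest.

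Of the inhibitors, NFKBIA and NFKBIE were not called in any line. NFKBIA had values of 1043 with FOXO3 shRNA and 1093 with scrambled shRNA in BL-41, 501 and 538 in Namalwa, and 2766 and 3329 in Jiyoye. The FOXO3 shRNA arm was the lower one each time, by deposited log2 fold changes of -0.07, -0.11 and -0.27 (adjusted p 0.807, 0.865 and 0.112 in the authors' deposited table, DESeq2). NFKBIE had values of 332.2 with FOXO3 shRNA and 332.1 with scrambled shRNA in BL-41, 338 and 341 in Namalwa, and 466 and 424 in Jiyoye. Its log2 fold changes in the authors' deposited table lay between -0.01 and 0.14, and their 95% intervals together spanned -0.33 to 0.42.

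BCL3 rose in Jiyoye and was called in neither of the other lines. Its gene lies at chr19:44747705-44760044 (GRCh38.p14). Values were 312 with FOXO3 shRNA and 447 with scrambled shRNA in BL-41, 247 and 235 in Namalwa, and 802 and 555 in Jiyoye. In the authors' deposited table BCL3 rose by 0.53 (SE 0.15), 1.45-fold, in Jiyoye with an adjusted p of 0.00406 by DESeq2. In BL-41 the deposited value was -0.52 with an SE of 0.44 (95% interval -1.38 to 0.35, adjusted p = 0.452 in the authors' deposited table, DESeq2), and in Namalwa it was 0.07. The change in BL-41 minus that in Jiyoye was -1.05 (95% interval -1.96 to -0.13) and did not pass the test of the difference (adjusted p = 0.177, z test across all genes).

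BIRC3, whose product cIAP2 marks NIK for destruction and aids TNF receptor signalling, had the lower value with FOXO3 shRNA in each line. Its gene lies at chr11:102317484-102339403 (GRCh38.p14). Values were 716 with FOXO3 shRNA and 1267 with scrambled shRNA in BL-41, 1164 and 1410.1 in Namalwa, and 6811 and 8903 in Jiyoye. BIRC3 fell in Jiyoye by 0.39 (SE 0.14) per the authors' deposited table (DESeq2-adjusted p = 0.0316). It was not called in BL-41 (-0.82, SE 0.38, 95% interval -1.57 to -0.08, adjusted p = 0.0906) or in Namalwa (-0.28, SE 0.12, 95% interval -0.51 to -0.05, adjusted p = 0.163) in the authors' deposited table (DESeq2). TNFAIP3, the gene of A20, had values of 377 with FOXO3 shRNA and 473 with scrambled shRNA in BL-41, 131 and 135 in Namalwa, and 5275 and 5493 in Jiyoye. It was not called, with deposited log2 fold changes of -0.33, -0.05 and -0.06 (adjusted p 0.219, 0.940 and 0.948 in the authors' deposited table, DESeq2). The 95% interval in Jiyoye was wide, -0.77 to 0.66.

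Counted together, 1 of the 10 members was called in BL-41 (RELA, up), 0 in Namalwa and 3 in Jiyoye (RELA and BCL3 up, BIRC3 down). Of all genes tested by DESeq2, 28.7% were called in BL-41, 17.4% in Jiyoye and 6.41% in Namalwa. Of genes whose mean reached 100, as it did for all members, 40.7%, 25.5% and 9.61% were called, lines in the same order. At an unadjusted p under 0.05 the members counted 4 in BL-41, 4 in Jiyoye and 3 in Namalwa. The share of all genes at that unadjusted threshold was not counted and is at least the adjusted share, so these counts are not read further. By adjusted p, the member count was below the share of all genes in BL-41. At 3 of 10 it was near the share among genes of such level in Jiyoye, so neither count stands apart. The median log2 fold change of the members was -0.06 in BL-41, 0.11 in Jiyoye and -0.07 in Namalwa, against 0.02, 0.01 and -0.001 over all genes tested in those lines. The fold changes of the 3 called members in Jiyoye were under 0.58 in size, and with that limit 0 would be called there. The share of all genes past that limit was not counted.

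The response of the members was not shown to differ between lines. The z test of each difference, adjusted over all genes that both tables hold, passed for 0 of 10 members in BL-41 minus Namalwa, BL-41 minus Jiyoye and Namalwa minus Jiyoye. It passed for 7.01%, 6.25% and 2.75% of all genes. At an unadjusted p under 0.05, for which no share of all genes was counted, it counted 1 member in each pair. These were RELA in BL-41 minus Namalwa (0.33, 95% interval 0.03 to 0.63, adjusted p = 0.199) and BCL3 in both pairs with Jiyoye, where Namalwa minus Jiyoye was -0.46 (95% interval -0.91 to -0.02, adjusted p = 0.350). For RELB the difference of BL-41 minus Jiyoye was -0.84 (95% interval -1.68 to 0.005, adjusted p = 0.269), so a larger change in BL-41 was neither shown nor bounded closely.

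The precision of the fold changes varied widely among the members, most of all in BL-41. Each SE was set against those of genes in the same table with a mean within 2-fold of the member's. In BL-41 the SE of RELB (0.41) was larger than that of 99.8% of such genes, those of BCL3 (0.44) and BIRC3 (0.38) each exceeded 99.6%, and that of NFKB2 (0.19) exceeded 97.2%. The median SE of those genes was 0.135 for RELB, 0.161 for BCL3, 0.135 for BIRC3 and 0.130 for NFKB2. In Namalwa the SE of RELB, BCL3 and BIRC3 were 0.14, 0.17 and 0.12 and exceeded 80.0%, 58.3% and 55.6% of such genes. In Jiyoye they were 0.13, 0.15 and 0.14 and exceeded 31.9%, 55.2% and 72.0%. RELB, BCL3 and BIRC3 thus had SE of 0.38 to 0.44 in BL-41, against 0.12 to 0.17 in the other lines. RELA did not share this, with an SE of 0.12 in BL-41 that exceeded 42.3% of such genes. TNFAIP3 stood out in Jiyoye, where its SE of 0.36 exceeded 98.9% of genes of like level, and REL in Namalwa, where 0.19 exceeded 96.6%. Which libraries spread apart cannot be read from arm values.

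**Figure D2:**
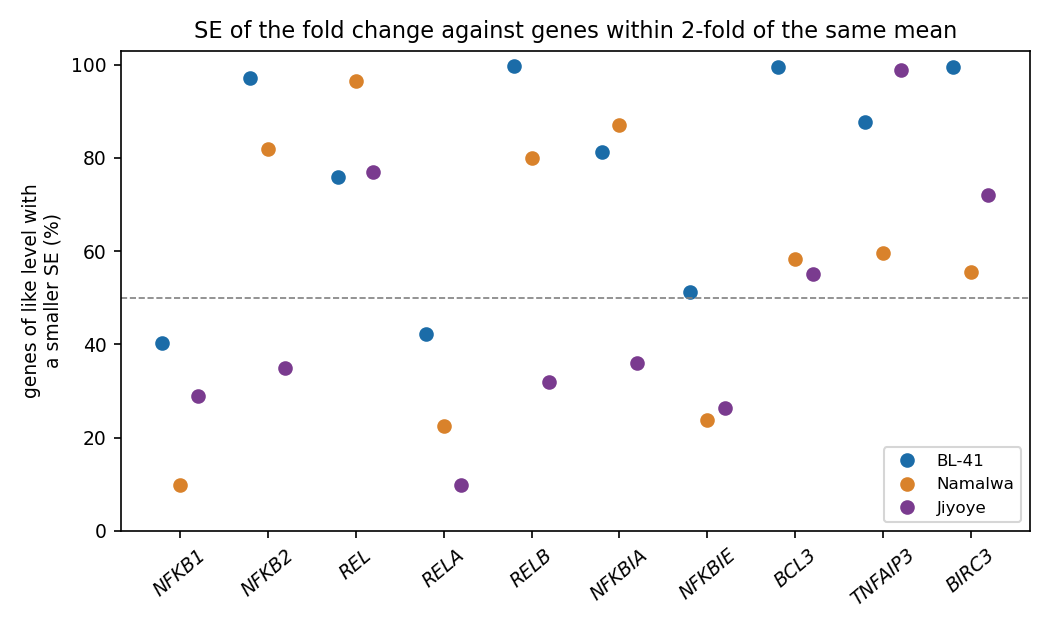
For each member and line, the percentage of genes with a mean within 2-fold of the member's that had a smaller recovered SE of the fold change (y axis); the dashed line marks 50%. In BL-41, RELB, BCL3, BIRC3 and NFKB2 lie above 97%, and in Jiyoye TNFAIP3 lies at 98.9%.

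Per length, which allows levels to be set side by side between genes, RELA made up the largest part of the subunit transcripts in BL-41 and Namalwa and NFKB2 in Jiyoye. The arm value per kilobase of RELA was 1239 with FOXO3 shRNA and 820.1 with scrambled shRNA in BL-41, which was 53.9% and 38.4% of the sum over the 5 subunits. In Namalwa the share of RELA in that sum was 45.7% with FOXO3 shRNA and 38.5% with scrambled shRNA. The share of RELB in the sum of values per kilobase was 12.9% with FOXO3 shRNA and 26.8% with scrambled shRNA in BL-41, and 21.0% and 26.7% in Namalwa. The scrambled arms of these lines therefore held RELA and RELB in nearly the same shares. In Jiyoye NFKB2 made up 38.1% with FOXO3 shRNA and 39.5% with scrambled shRNA, RELA 28.8% and 24.6%, and RELB 12.6% and 15.3%. The sum itself was 2297 per kilobase with FOXO3 shRNA and 2136 with scrambled shRNA in BL-41, 2061 and 2032 in Namalwa, and 2939 and 2611 in Jiyoye. These shares describe transcripts, carry no test, and inherit the wide interval of RELB in BL-41.

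**Figure D3:**
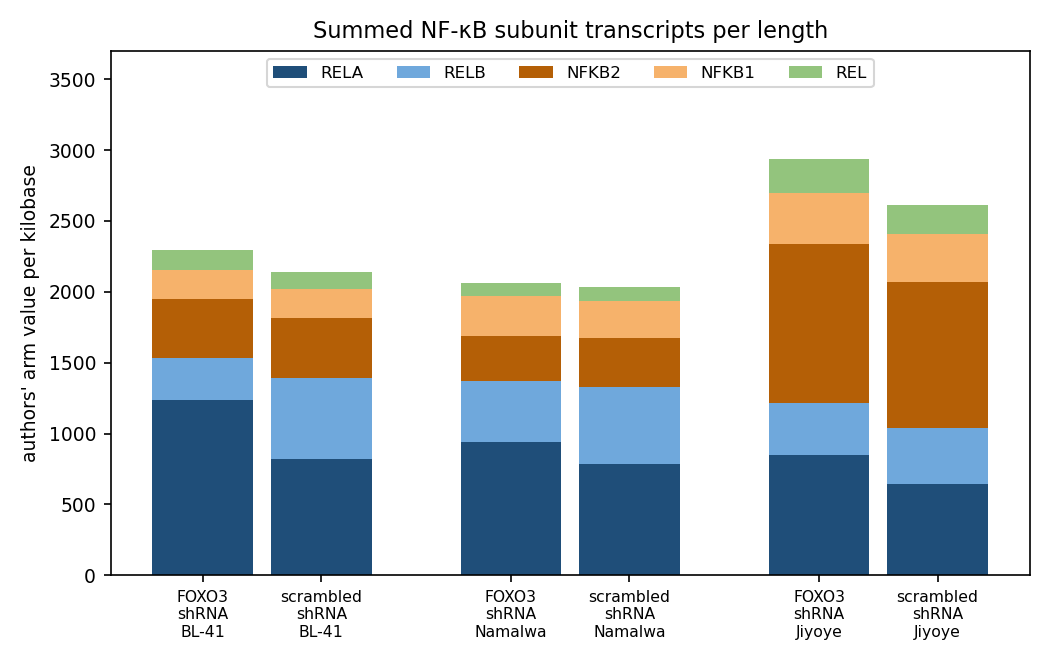
Authors' arm value per kilobase of gene length (y axis) for the 5 NF-kB subunit genes, stacked, with the FOXO3 shRNA arm left of the scrambled arm in each line. RELA takes 53.9% of the FOXO3 shRNA bar and 38.4% of the scrambled bar in BL-41, and NFKB2 is the largest part of both Jiyoye bars.

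The second question was whether the members stood higher in the EBV-positive lines without knockdown. Jiyoye was higher than BL-41 for all members but RELA and RELB, and Namalwa for NFKB1 and BIRC3 alone, BIRC3 by 0.08 on the log2 scale. Because each table was normalized on its own, scrambled values were brought to a common scale by the median over 8870 genes with a mean of 100 or more in every line (factors 0.952 for Jiyoye, 1.05 for Namalwa and 0.998 for BL-41), and levels set across lines have no test. Only NFKB1 and BIRC3 were higher in both Namalwa and Jiyoye than in BL-41, 2 of 10 members, where 30.4% of these genes were. Jiyoye was at least 2-fold above BL-41 for 4 members and below it by that much for 0, where 16.5% and 12.7% of compared genes were. Compared genes here are those with a mean of 100 or more in at least 1 line of the pair. Over the 8870 genes, the shares higher and lower were 10.7% and 8.85% for Jiyoye over BL-41. They were 6.44% and 6.61% for Namalwa over BL-41, and 11.4% and 9.73% for Jiyoye over Namalwa. Namalwa was at least 2-fold above BL-41 for 0 members and below it for 3 (NFKBIA, BCL3 and TNFAIP3), where 9.41% and 11.4% of compared genes were. BCL3 was just past that limit (2.01-fold lower) and fell short of it with values as deposited (log2 ratio -0.93), with sums set equal (-0.95), in the mean of both arms (-0.71) and in the FOXO3 shRNA arms (-0.40), which leaves 2. Jiyoye over Namalwa gave 6 members at least 2-fold higher and 0 lower, where 18% and 12.8% of compared genes were. The median log2 ratio of the members was 0.84 for Jiyoye over BL-41 and -0.26 for Namalwa over BL-41, against 0.03 and -0.03 over all genes compared.

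The feedback genes TNFAIP3, BIRC3 and NFKBIA showed the largest distances. The scrambled value of TNFAIP3 was 5493 in Jiyoye, 135 in Namalwa and 473 in BL-41. On the common scale Jiyoye was 12.2-fold above BL-41 and Namalwa 3.69-fold below it, so the EBV-positive lines were 44.9-fold apart. BIRC3 had scrambled values of 8903 in Jiyoye, 1410.1 in Namalwa and 1267 in BL-41, which put Jiyoye 7.37-fold above BL-41 and Namalwa 1.05-fold above it, on the common scale. NFKBIA had scrambled values of 3329 in Jiyoye, 538 in Namalwa and 1093 in BL-41, 3.20-fold above and 2.14-fold below BL-41 on the common scale. Per length, BIRC3, TNFAIP3 and NFKBIA each had a scrambled value above that of 94.7% to 97.4% of genes in Jiyoye. In Namalwa TNFAIP3 was above 35.6% of genes per length, and in BL-41 above 50.2%. BCL3 had scrambled values of 555 in Jiyoye, 235 in Namalwa and 447 in BL-41, and NFKBIE had 424, 341 and 332.

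No subunit reached the distances of TNFAIP3, BIRC3 or NFKBIA between lines. NFKB2 had scrambled values of 3272 in Jiyoye, 1102 in Namalwa and 1356 in BL-41, 2.53-fold above BL-41 in Jiyoye on the common scale. NFKB1 (1362 in Jiyoye, 1070.4 in Namalwa, 821 in BL-41) and REL (1577 in Jiyoye, 737 in Namalwa, 895 in BL-41) were 1.74-fold and 1.85-fold above BL-41 in Jiyoye. RELA (1665 in Jiyoye, 2033 in Namalwa, 2125 in BL-41) and RELB (917 in Jiyoye, 1247 in Namalwa, 1314 in BL-41) were highest in BL-41. For RELB this order does not hold in the FOXO3 shRNA arms, where its log2 ratio to BL-41 was 0.41 in Jiyoye and 0.48 in Namalwa, against -0.45 and -0.15 in the scrambled arms. As a yardstick, a within-line error of each log2 ratio was taken from the fold change SE of both tables. RELB in Jiyoye and BL-41 lay 1.48 such errors apart. Neighbours in the order of lines lay within 2 such errors for RELA throughout, for RELB and BIRC3 between Namalwa and BL-41, for NFKBIE between Namalwa and BL-41, and for BCL3 between Jiyoye and BL-41. All other neighbours of the members lay farther apart than 2 such errors. For 8 of the 10 members, all but RELA and RELB, both deposited Jiyoye arm values lay above every arm of the other lines.

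**Figure D4:**
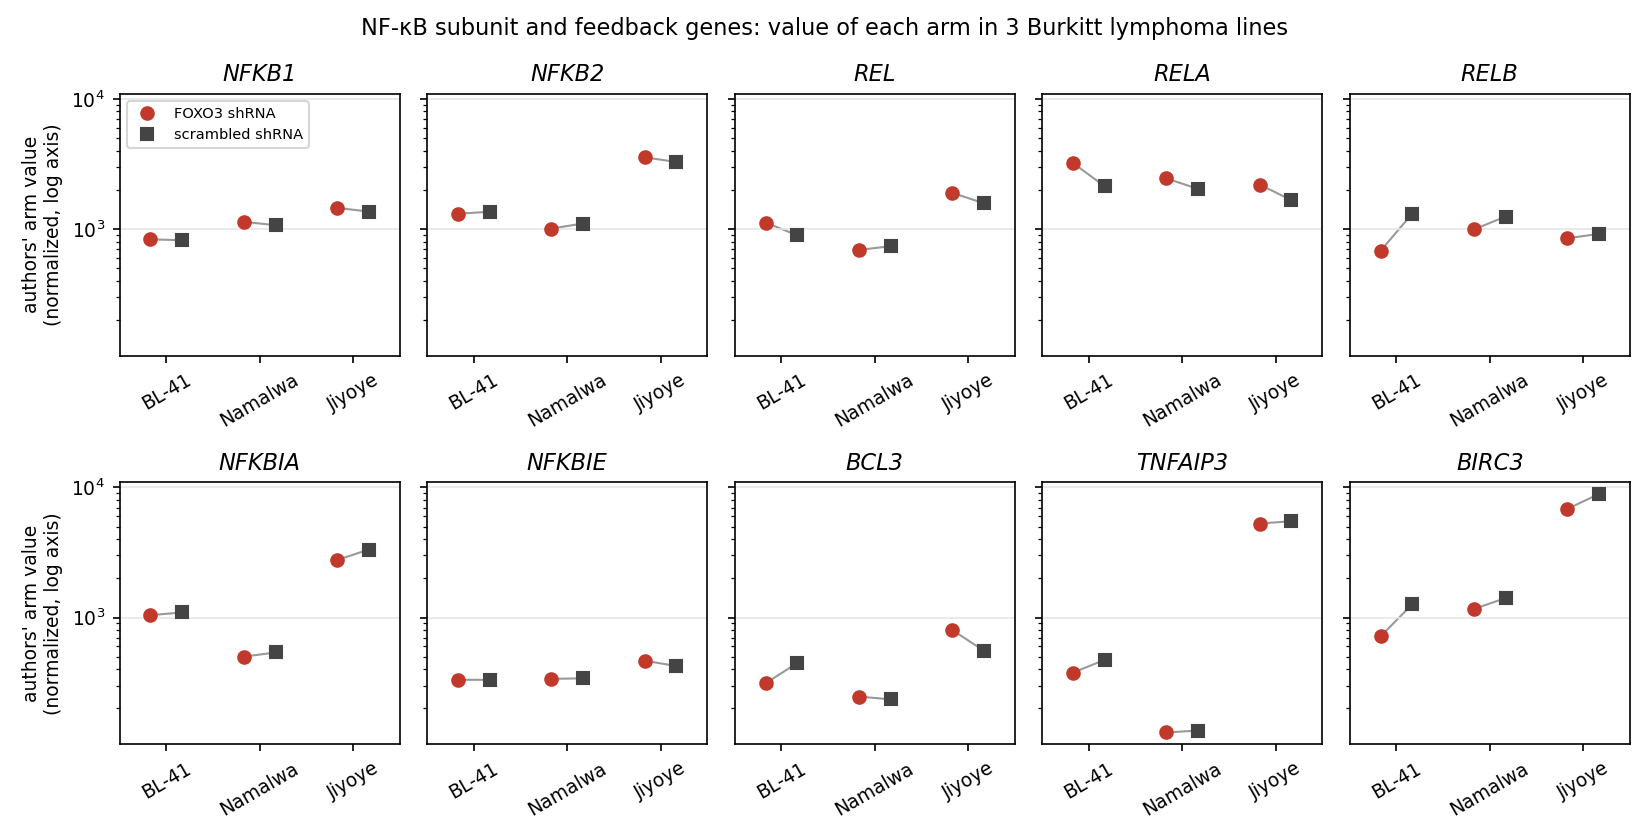
Authors' arm value (y axis, log scale) of each of the 10 members with FOXO3 shRNA (circles, left) and scrambled shRNA (squares, right) in each line, as deposited; the tables give 1 value per arm, so no error is drawn. TNFAIP3 lies at 5275 and 5493 in Jiyoye and at 131 and 135 in Namalwa, while RELA circles lie above their squares in every line.

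Other genes of the pathway were followed by role, from a list of 99. In BL-41 21 of 98 measured genes rose and 21 fell, in Namalwa 1 of 96 rose and 8 fell, and in Jiyoye 6 of 99 rose and 10 fell (DESeq2). Over all genes 14.5% rose and 14.2% fell in BL-41, 2.6% rose and 3.81% fell in Namalwa, and 8.69% rose and 8.7% fell in Jiyoye. These shares are not matched for level, and most of the listed genes had a mean that reached 100. Adjusted among such genes alone, 41 of 77 listed genes were called for BL-41, 10 of 70 for Namalwa and 16 of 86 for Jiyoye. Of all genes at that level 40.7%, 9.61% and 25.5% were called, lines in the same order, but with p adjusted over all genes tested. That rule is the stricter one, so the listed counts and these shares are not matched. For Jiyoye the listed genes lay below the share even so, and no order is drawn for BL-41 or Namalwa. Receptors and ligands in BL-41 included 2 that rose and 10 that fell of 20, with a median log2 fold change of -0.45 against 0.02 over all genes. Adaptors and kinases had 4 up and 3 down of 24 there, ubiquitin enzymes and further inhibitors 6 up and 5 down of 22, and known targets 9 up and 3 down of 32. In Namalwa 3 of 19 receptors and ligands fell, as did 3 of 24 adaptors and kinases (1 rose), 1 of 21 ubiquitin enzymes and inhibitors and 1 of 32 targets. In Jiyoye 2 receptors and ligands rose and 2 fell of 20, 1 adaptor or kinase rose and 2 fell of 24, 1 ubiquitin or inhibitor gene rose and 2 fell of 22, and 2 targets rose and 4 fell of 33. By the naming rule 16 of these genes are described, and a line for which no change is given for such a gene did not have it called.

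Receptors of the noncanonical route and B cell survival were among those that fell. In BL-41 and Jiyoye they did so beside the lower sums of germinal centre and B cell markers given above. In Namalwa only the germinal centre sum was lower. The part of these marker sums was not tested. TNFRSF17, the gene of the receptor BCMA, had values of 180.5 with FOXO3 shRNA and 493 with scrambled shRNA in BL-41 and 197 and 329 in Namalwa, with falls of 1.45 and 0.74 per the authors' deposited table (DESeq2-adjusted p 6.57e-10 and 0.000623). TNFRSF13C, the gene of the BAFF receptor, had 218 with FOXO3 shRNA and 391.7 with scrambled shRNA in Namalwa and 153 and 323 in BL-41. It fell by 0.84 and 1.08 per the authors' deposited table (DESeq2-adjusted p 2.43e-06 and 1.64e-05) and was not called in Jiyoye (-0.53, adjusted p = 0.0841). CD40 was lower with FOXO3 shRNA in all lines. Its values were 203 with FOXO3 shRNA and 341 with scrambled shRNA in BL-41, 193 and 272 in Namalwa, and 569 and 983 in Jiyoye, and it was called in BL-41 and Jiyoye (-0.75 and -0.79 per the authors' deposited table, DESeq2-adjusted p 0.000354 and 8.17e-06) and not in Namalwa (adjusted p = 0.0645). TNFRSF13B, the gene of the receptor TACI, fell in Jiyoye by 0.78 and in BL-41 by 1.12 per the authors' deposited table (DESeq2-adjusted p 0.000277 and 2.12e-05). TLR7, a sensor of RNA in endosomes, had 476 with FOXO3 shRNA and 957 with scrambled shRNA in BL-41, a fall of 1.01 per the authors' deposited table (DESeq2-adjusted p = 7.4e-13).

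Among kinases and adaptors, TBK1 was called in all 3 lines. TBK1, an IKK-related kinase, had values of 1209 with FOXO3 shRNA and 646 with scrambled shRNA in BL-41, 1241 and 977 in Namalwa, and 1207 and 838 in Jiyoye. It rose by 0.90, 0.35 and 0.53 per the authors' deposited table (DESeq2-adjusted p 1.52e-07, 0.0383 and 0.00237). PRKCB, a protein kinase C gene that acts downstream of the B cell receptor, had 1621 with FOXO3 shRNA and 3182 with scrambled shRNA in BL-41 and 2567 and 3824 in Namalwa. It fell by 0.97 and 0.58 per the authors' deposited table (DESeq2-adjusted p 9.36e-09 and 8.12e-05). TAB2, an adaptor of the kinase TAK1, fell in Namalwa by 0.38 and TRADD, an adaptor of TNF receptor 1, fell in Jiyoye by 0.70 per the authors' deposited table (DESeq2-adjusted p 0.00383 and 0.00242).

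Inhibitor and ubiquitin genes moved both ways. NFKBIZ, an atypical nuclear IkB, had 374 with FOXO3 shRNA and 172 with scrambled shRNA in BL-41, a rise of 1.12, and RNF31, the catalytic subunit of the linear ubiquitin ligase LUBAC, rose there by 0.90 per the authors' deposited table (DESeq2-adjusted p 1.73e-08 and 3.9e-07). NKIRAS2, which codes for a small GTPase-like protein that binds IkB, had values of 1024 with FOXO3 shRNA and 1354 with scrambled shRNA in BL-41, 1051 and 1430.2 in Namalwa, and 1013 and 1354 in Jiyoye. It fell in all 3 lines, by 0.40, 0.44 and 0.42 per the authors' deposited table (DESeq2-adjusted p 0.00196, 0.00215 and 0.0226). TNIP1, an A20-binding inhibitor, fell in BL-41 by 0.50 and in Jiyoye by 0.47 per the authors' deposited table (DESeq2-adjusted p 5.13e-05 and 0.0235).

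Known targets moved both ways. TRAF1, an adaptor gene that NF-kB induces, had 58.8 with FOXO3 shRNA and 182 with scrambled shRNA in BL-41, 72.8 and 100.5 in Namalwa, and 1196 and 2548 in Jiyoye. It fell in BL-41 by 1.63 and in Jiyoye by 1.09 per the authors' deposited table (DESeq2-adjusted p 7.93e-06 and 5.15e-10) and was not called in Namalwa (-0.47, adjusted p = 0.244). IRF4, a B cell transcription factor, had 3433 with FOXO3 shRNA and 9723 with scrambled shRNA in Jiyoye, 2209.6 and 2948 in Namalwa, and 5366 and 3696 in BL-41. It fell in Jiyoye and Namalwa and rose in BL-41 per the authors' deposited table (DESeq2-adjusted p 1.64e-14, 0.0058 and 0.00157). PLEK, which codes for pleckstrin, had 2434 with FOXO3 shRNA and 6062 with scrambled shRNA in BL-41, a fall of 1.32 per the authors' deposited table (DESeq2-adjusted p = 1.24e-11). The SE of TRAF1 in BL-41 (0.32) exceeded that of 98.7% of genes of like level, beside the wide SE of RELB, BCL3 and BIRC3 in that line.

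Without knockdown, known targets of NF-kB were counted by how far the lines lay apart. Over all genes in the 3 tables, whatever their level, 24 of 32 targets were at least 2-fold higher in Jiyoye than in BL-41 and 3 at least 2-fold lower, where 21.3% and 15.1% of all genes were. Jiyoye over Namalwa gave 24 of 32 targets higher and 2 lower by that much, where 25% and 13.8% of all genes were. Namalwa over BL-41 gave 4 of 32 higher and 10 lower, where 11.5% and 18.6% of all genes were. Many of these targets were low in at least 1 line, and fewer remained among genes whose mean reached 100 in every line, a limit added here after seeing the data. There, 7 of 13 targets were at least 2-fold higher in Jiyoye than in BL-41 and 2 lower (10.7% and 8.85% of such genes). By the same limit 6 of 13 were higher and 1 lower in Jiyoye than in Namalwa (11.4% and 9.73% of such genes), and 0 were higher and 2 lower in Namalwa than in BL-41 (6.44% and 6.61%). Of 24 adaptors and kinases, whatever their level, 19 lay within 2-fold between Jiyoye and BL-41 and 22 between Namalwa and BL-41. TRAF1 had a scrambled value of 2548 in Jiyoye, 100.5 in Namalwa and 182 in BL-41. These counts describe 3 cell lines, carry no test, and the known targets were listed with earlier results of these data known.

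**Figure D5:**
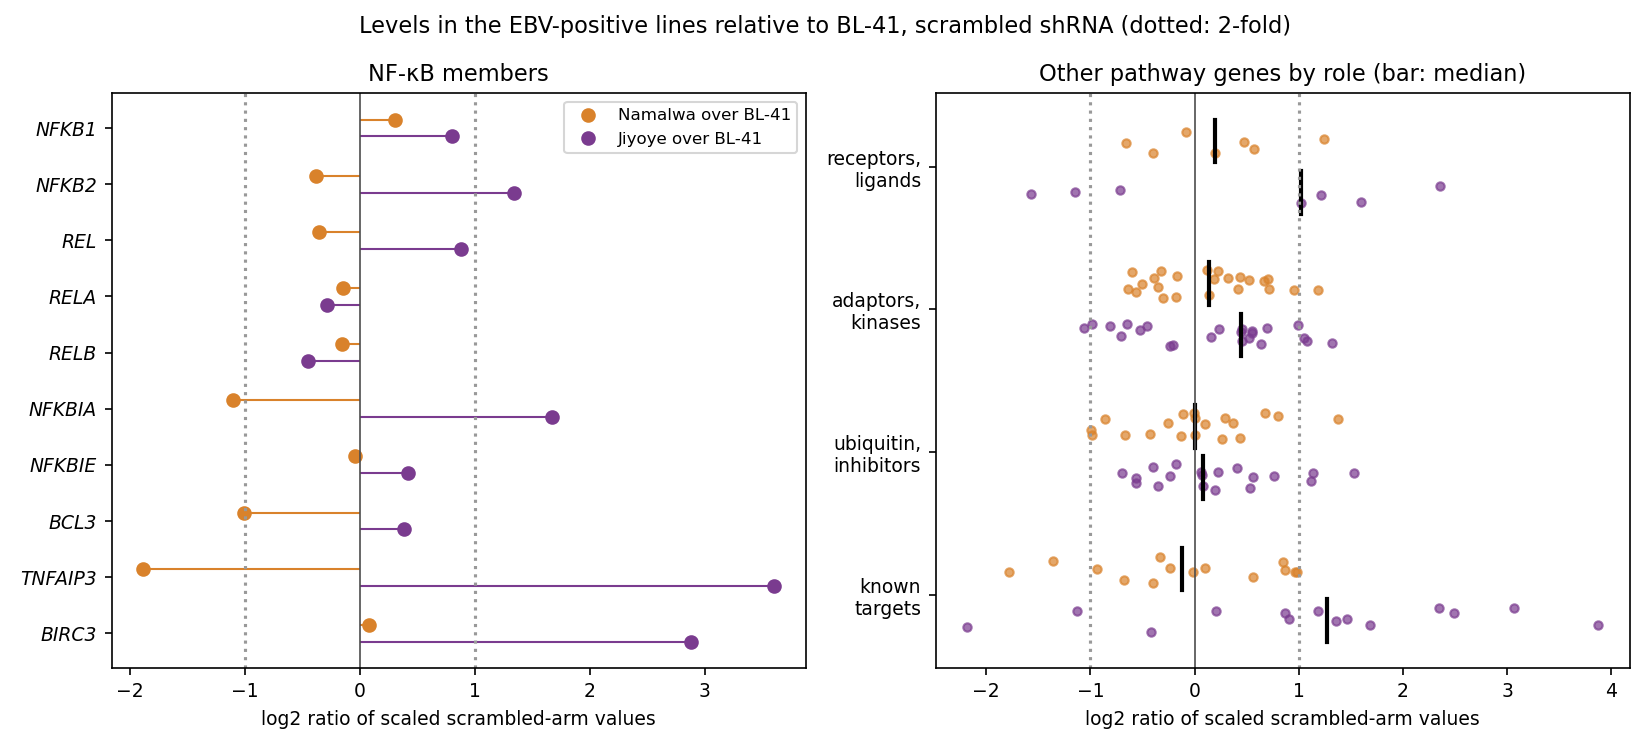
Log2 ratio of scrambled-arm values on the common scale (x axis), Namalwa over BL-41 and Jiyoye over BL-41, for the 10 members (left) and for other pathway genes with a scrambled value of at least 100 in every line, by role (right, black bars are medians); dotted lines mark 2-fold. TNFAIP3 lies at 3.61 for Jiyoye and -1.88 for Namalwa, and known targets of Jiyoye lie on both sides of 0.

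TNFAIP3 had the widest range of the members over its 6 arm values, 5.54 on the log2 scale, against 0.61 for NFKBIE. Among 8869 other genes whose mean reached 100 in every line, those with the smallest Euclidean distance to its 6 centred log2 arm values were NLRP1 (0.962), ELL2 (1.31) and DDR1 (1.32). NLRP1, the gene of an inflammasome sensor, had 5526 with FOXO3 shRNA and 5244 with scrambled shRNA in Jiyoye, 202 and 289 in Namalwa, and 610.2 and 723 in BL-41. ELL2 codes for a transcription elongation factor and DDR1 for a collagen receptor kinase. These distances rest on 6 arm values from 3 lines.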

How the data were processed

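Messenger RNA was enriched with oligo-dT, per the labels' protocols. SOAPnuke, Bowtie2, RSEM, DESeq2 and the hg38 genome are named in the series' design text and the submitters' processing notes, with no version. The authors deposited, for each line, a table with a signal value per arm, and with a log2 fold change, p-values and adjusted p-values, per the file headers, and a gene length in bases. How arm values were normalized, and whether fold changes were shrunk towards 0, is not given in the sources used here; no arm value is 0. Arm ratios were checked against the deposited fold changes (within 1.39e-14), and Benjamini-Hochberg adjustment of the deposited p against the adjusted values (within 3.56e-15). The planned count test, replicate block and removal of single replicates needed values per library, which the tables used here do not hold, so calls are the authors' own DESeq2 calls. Depth per library is unknown here; the arm values' sums are not read totals.

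Each SE is the size of the fold change divided by the normal deviate of its p, and 95% intervals run 1.96 SE either way. Line differences were tested with a two-sided z test, adjusted over 14789 to 15419 genes per pair. On simulated data with independent noise of these SE, it recovered 81% of 100 genes changed by 1 on the log2 scale in BL-41 minus Namalwa (14789 genes). That share is taken over the changed genes together and depends on their SE. For RELB, BCL3 and BIRC3 the SE of this difference was 0.43, 0.47 and 0.40, against 0.15 for RELA. The 81% therefore does not show how often a change of 1 would be recovered for RELB, BCL3 or BIRC3. The simulation does not test the SE themselves, which would be too small if fold changes were shrunk after the p was computed. The members and lists were chosen with earlier results of these data known. Named genes are the members, FOXO3, per role and line the 2 called pathway genes with the smallest adjusted p and a mean of at least 100, and the 3 genes nearest in pattern to the member of widest range. Gene positions and promoter windows are from RefSeq (GRCh38.p14) and all 10 members matched by gene ID. Alternatives were a stricter threshold of 0.01, a size limit of 0.58, a mean of at least 100, centring, pseudocounts of 1 and 10 and other scalings between tables, and for known targets a mean of at least 100 in every line, chosen after seeing the data. Scripts ran in Python 3.11.15 with scipy 1.17.1, numpy 2.4.6, matplotlib 3.10.9 and pandas 2.3.3. A B cell marker of the planned list is not reported here.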

Additional observations from a re-analysis of the deposited data

Results flagged for a closer look

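A difference of fold changes between lines passed its z test (adjusted over all genes of each pair) for 0 of 30 member tests and for FOXO3 in 1 pair. It passed for 13 of 48 tests of other pathway genes named above. Of all genes it passed for 7.01% in BL-41 minus Namalwa, 6.25% in BL-41 minus Jiyoye and 2.75% in Namalwa minus Jiyoye. The named pathway genes were picked for a small adjusted p in these same data. Their share of passed tests therefore cannot be set against that of the members or of all genes. FOXO3 itself differed in Namalwa minus Jiyoye (-0.799, adjusted p = 0.0174), beside its uncalled change in Jiyoye.

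Receptor genes differed with BL-41 as the lower line. The difference was -0.900 for TNFRSF13B in BL-41 minus Namalwa (adjusted p = 0.029), -1.195 for TNFRSF17 in BL-41 minus Jiyoye (adjusted p = 0.013), -0.610 for TLR7 in BL-41 minus Namalwa (adjusted p = 0.040) and -1.391 for TLR7 in BL-41 minus Jiyoye (adjusted p = 0.00259), where TLR7 had values of 46.1 with FOXO3 shRNA and 35.4 with scrambled shRNA in Jiyoye. PRKCB differed by -0.875 in BL-41 minus Jiyoye (adjusted p = 0.000356). The inhibitor and ubiquitin genes RNF31 (0.794, adjusted p = 0.00544) and NFKBIZ (1.065, adjusted p = 0.00824) differed in BL-41 minus Namalwa.

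Among targets, TRAF1 differed by -1.165 in BL-41 minus Namalwa (adjusted p = 0.046). IRF4 differed in every pair, by 0.954 in BL-41 minus Namalwa (adjusted p = 4.62e-05), 2.040 in BL-41 minus Jiyoye (adjusted p = 5.98e-15) and 1.086 in Namalwa minus Jiyoye (adjusted p = 0.000117). PLEK differed by -1.205 in BL-41 minus Namalwa (adjusted p = 0.0205) and -1.532 in BL-41 minus Jiyoye (adjusted p = 5.3e-09).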

How the results depend on the processing

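Of 110 recomputed fold changes with a p, of members, FOXO3 and named pathway genes, 107 kept their direction and side of the threshold, and 110 under pseudocounts of 1 and 10, which have no p, moved by less than their SE. Among genes whose mean reached 100, RELA in Namalwa (0.27, adjusted p = 0.0484) and RELB in BL-41 (-0.95, adjusted p = 0.0470) became called, and called members counted 2 in BL-41 and 1 in Namalwa in place of 1 and 0; fewer genes were tested together. Centring turned NFKBIE in BL-41 to -1.87e-05, a value of no size. With a fold change limit of 0.58, 0 members were called in Jiyoye, and 26, 2 and 7 other pathway genes in BL-41, Namalwa and Jiyoye in place of 42, 9 and 16. No share of all genes was counted under this limit or with p adjusted among genes of that mean. Whether these changes in count are particular to the listed genes was therefore not tested. At an adjusted p under 0.01, 28, 7 and 10 other pathway genes were called in BL-41, Namalwa and Jiyoye. The members called were then 1, 0 and 2, again with no share of all genes counted. Line differences of named pathway genes were recomputed only where already past the threshold, and all 24 recomputed values stayed past it. Centring moved them little and a mean of at least 100 left fewer genes tested together, so this outcome was nearly fixed beforehand. TRAF1 in BL-41 minus Namalwa and TLR7 in BL-41 minus Jiyoye lacked that mean in 1 line and were recomputed by centring alone. Members higher in both EBV-positive lines numbered 2 or 3 under 5 other scalings or arms. Of 150 recomputed ratios between lines 118 moved by less than the within-line error and none of those past 2-fold changed sign, while RELB over BL-41, short of 2-fold, did with the FOXO3 shRNA arms (0.41 in Jiyoye, 0.48 in Namalwa) and, in Namalwa, with the mean of both arms (0.11). The share of known targets at least 2-fold higher in Jiyoye than in BL-41 was 53.8% in place of 75% with a mean of at least 100 in every line, a limit chosen after seeing the data, and in Jiyoye over Namalwa 46.2% in place of 75%. No paired analysis was possible because the tables hold no values per library, and for the same reason no replicate was left out in turn and no other count tool was run.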

Other observations

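Among genes of the wider pathway, chosen here after their values were seen, several separated the lines without knockdown. TNFRSF1B, the gene of TNF receptor 2, had scrambled values of 2792 in Jiyoye and 3209 in Namalwa, against 84.2 in BL-41. CCR7, a chemokine receptor gene, had 9661 in Jiyoye, 34.6 in Namalwa and 782 in BL-41. The members TNFAIP3, NFKB2, REL, NFKBIA and BCL3 had the same order of lines. The lymphotoxin genes LTA and LTB had 422 and 479 in Jiyoye, 9.02 and 8.28 in Namalwa, and 258 and 272 in BL-41. CCND2, the gene of cyclin D2, had 5307 in Jiyoye, 1.99 in Namalwa and 1.04 in BL-41. TLR10, a Toll-like receptor gene, and TNFRSF1A, the gene of TNF receptor 1, ran the other way, with 68.5 and 60.3 in Jiyoye, 1480.2 and 660.3 in Namalwa, and 1453 and 599 in BL-41. The values are as deposited in tables normalized separately, and carry no test.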
